A study of Rattus norvegicus with 4 samples.

Results

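The sequences described here form the largest group of overlapping small RNA sequences in a Piwil2 immunoprecipitation from rat hippocampus, fragments of the 18S ribosomal RNA. They were found by joining, step by step, all sequences of the deposited raw table that share an identical run of 20 bases. Of 3129 sequences in 307 such families, 292 belong to the family that holds novel_12320_x160, and no other family is larger. The rule used letters alone and no tag counts. The material was the CA1 field of the hippocampus of male Wistar rats, 7 to 8 weeks old, and RNA bound to Piwil2 was sequenced in libraries named Sham, tGCI26h (transient global cerebral ischemia, with 26 h in the name) and HPC0h (0 h, an abbreviation that the labels leave unexplained), beside an IgG control library from the same tissue, strain and age, for which no treatment is named. Every group is 1 library here, although the design text speaks of 3 replicates in each of Sham, tGCI and HPC, and whether a library pools animals is not stated. The labels name no genotype and no drug. Apart from IgG, the table's columns match these library names only by a first letter or a time, so every value below rests on that match.

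Ribosomal RNA 18S is the RNA of the small ribosomal subunit, in which messenger RNA is decoded, and it is one of the most abundant RNAs of any cell. Piwil2 is a PIWI protein, a class of Argonaute proteins that carry small RNAs called piRNAs and use them to silence transposons, above all in the germline. Fragments of abundant RNAs also appear in small RNA libraries of other kinds, and an IgG library shows which of them are recovered without an antibody to the protein.

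A tag is a counted read of a listed sequence, and the family had 10642 of them in the Sham library, 17956 in the tGCI26h library, 50192 in the HPC0h library and 53203 in the IgG library. The listed tags of the whole libraries were 159215, 222511, 830634 and 668857 in the same order. The 2 libraries with fewer listed tags also listed fewer members, 174 in Sham and 187 in tGCI26h against 283 in HPC0h and 258 in IgG. A member that is not listed is not shown to be missing: of the 118 members not listed in Sham, 57 have a value in the authors' normalized table, as do 76 of 105 in tGCI26h. For this reason no fold is given below against a library where a member is not listed. With 1 library per group, each difference is between libraries, no test between conditions exists, and 95% intervals (exact Clopper-Pearson) cover counting error only, since PCR copies are not independent molecules. Some members that lie inside a longer one had the same tags as it. The member novel_19998_x106 lies inside novel_16659_x123, and both had 17, 47 and 19 tags in tGCI26h, HPC0h and IgG. Whether the same reads were counted for more than 1 member was not tested. If so, sums would hold them more than once and the intervals would be too narrow.

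All 292 members could be laid on a single line of 170 bases with 0 conflicting placements, so all of them lie along 1 stretch. Taking at each base the letter with the most tags gave the sequence below, shown because every member is a piece of it or differs from it at a few bases. Of the 10 members with the highest mean CPM (tags scaled to a common total, with the listed tags of a library as its total), 5 end in its last 4 bases, and capitals mark bases 133 to 167, the core of 35 bases that those 5 have in common.
assembled stretch: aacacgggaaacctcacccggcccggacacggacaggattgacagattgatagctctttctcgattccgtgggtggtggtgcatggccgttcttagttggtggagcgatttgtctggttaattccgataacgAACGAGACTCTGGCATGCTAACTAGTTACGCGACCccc

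The 18S label was checked against the rat sequence at hand, 33469 windows of 300 bases around gene starts of the RefSeq assembly GRCr8. Bases 99 to 170 of the stretch were identical, letter for letter, to chr11:239454-239525 on the minus strand, inside an annotated rRNA gene of 1872 bases, the same length as Rn18s, the rat 18S rRNA gene. In that gene they are bases 1351 to 1422, which puts the whole stretch at bases 1253 to 1422 if it is unbroken there. The same 72 bases lie in another rRNA gene of that length at chr11:488499-488570, minus strand. Bases 32 to 96 occur at chr3:23071873-23071937 and again at chr3:23087790-23087854, within windows of LOC134486046 and LOC134486048, 2 genes annotated as long noncoding RNA, so single members cannot be given 1 place in the genome. Bases 78 to 109 also occur at chr12:512935-512966, minus strand, within a window of Spetex2l3. In all, 99 members with 55.1% of the family's tags were found whole in an rRNA gene window and 155 with 62.8% in any window. The other members lie outside the bases that these windows hold, or differ from them.

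The most abundant members were staggered cuts of the last bases of the stretch. These 5 sequences are shown because they include the member with the most tags in every library, with the shared core in capitals.
novel_954_x1687: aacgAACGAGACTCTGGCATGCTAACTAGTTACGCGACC
novel_5328_x351: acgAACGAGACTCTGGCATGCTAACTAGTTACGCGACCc
novel_4066_x455: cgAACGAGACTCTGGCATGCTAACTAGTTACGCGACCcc
novel_12320_x160: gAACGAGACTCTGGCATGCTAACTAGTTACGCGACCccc
novel_6226_x301: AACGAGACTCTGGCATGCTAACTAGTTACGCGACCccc

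The first of the family in every library was novel_12320_x160, which covers bases 132 to 170. Its tags numbered 1427 (Sham), 2481 (tGCI26h), 5989 (HPC0h) and 7580 (IgG), or 13.4%, 13.8%, 11.9% and 14.2% of the family's tags. Next came novel_6226_x301, 1 base shorter at its 5′ end, with 715, 1491, 3554 and 4994 tags. The order at the top was much alike, with 9 members among the 10 most abundant in all 4 libraries and 12 in at least 1 of them. The 10 most abundant members of each library held between 48.2% of family tags in HPC0h and 53.8% in IgG. No member carries a catalogue name of the kind rno_piR, although 126 sequences of the table do.

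Tags did not start evenly along the stretch. Starts fell into 7 blocks with gaps of more than 3 bases between them. The last, 85 members with starts at bases 112 to 134, held 47.2% of the Sham family tags (95% interval 46.3 to 48.2). Its share was 49.6% for tGCI26h (48.8 to 50.3), 49.8% for HPC0h (49.4 to 50.3) and 60.1% for IgG (59.7 to 60.6). The widest block, 139 members starting at bases 42 to 78, held 36.1%, 34.96%, 34.6% and 24.7% in the same order. IgG thus stood apart from all 3 Piwil2 libraries by having more of the last block and less of this one. Another block, of 25 members, from base 88 to 97, held 13.4%, 11.3%, 10.6% and 11.04%. The 28 members that start at base 30 or before held 1.503%, 1.715%, 3.55% and 3.18% of family tags.

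The other 5 of the 10 members with the highest mean CPM are shown to mark where those pieces lie.
novel_438_x3208: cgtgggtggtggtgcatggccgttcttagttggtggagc
novel_168_x6916: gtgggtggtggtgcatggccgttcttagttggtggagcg
novel_1880_x947: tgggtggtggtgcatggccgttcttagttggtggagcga
novel_10917_x178: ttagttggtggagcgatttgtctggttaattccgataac
novel_578_x2589: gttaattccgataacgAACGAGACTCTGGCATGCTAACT
The last of these, novel_578_x2589 at bases 117 to 155, belongs to the last block and holds the first bases of the core in capitals. Its tags were 357, 585, 1188 and 1451 (Sham, tGCI26h, HPC0h, IgG). The member novel_1880_x947, from base 70, had 607, 786, 1696 and 1317, and novel_10917_x178, from base 93, had 642, 695, 1178 and 1799. In Sham novel_10917_x178 had slightly more tags than novel_1880_x947, in tGCI26h and HPC0h fewer and in IgG more.

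The most used 3′ end held a larger share of tags than the most used start. Only 2 members end at base 170, yet they held 20.1% of the Sham family tags, 22.1% for tGCI26h, 19.01% for HPC0h and 23.6% for IgG. No member reaches past that base, although one that shared 20 bases with the stretch would have been joined. Members were 30 to 39 nt long and 39 nt is the longest sequence in the table, so longer fragments were not analysed here. The 48 members of 39 nt held 70.3%, 68.03%, 62.9% and 62.6% of family tags (Sham, tGCI26h, HPC0h, IgG), against 43.1%, 46.4%, 48.8% and 43.3% of the tags outside the family. Most family tags are therefore as long as the longest sequence of the table. No sequence of the table was antisense to the stretch over 15 bases.

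**Figure D1:**
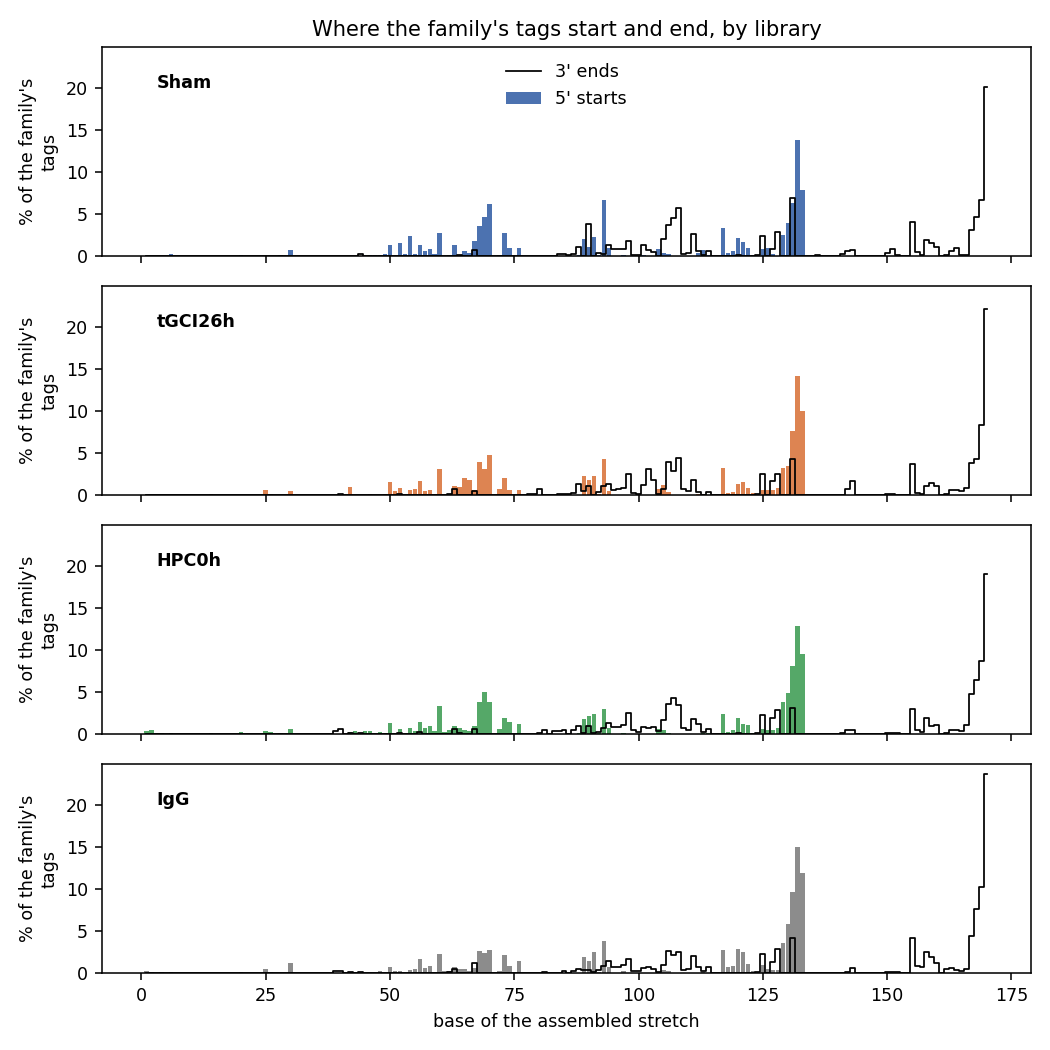
Share of the family's tags (y axis, %) that start (coloured bars) or end (black line) at each base of the assembled stretch (x axis, bases 1 to 170), in 1 panel per library. In all 4 libraries the most used start is base 132, with 13.8%, 14.2%, 12.8% and 15.04% of family tags from the top panel down, and the most used end is base 170.

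A 5′ T, the base typical of primary piRNAs, opened 24.9%, 24.04%, 20.98% and 19.9% of family tags (Sham, tGCI26h, HPC0h, IgG), against 29.5%, 27.5%, 15.6% and 24.2% outside. An A at position 10, typical of secondary piRNAs, was present in 10.9%, 9.86%, 13.5% and 15.8% of family tags, against 37.6%, 37.5%, 49.8% and 49.5% outside. Overlapping cuts of 1 stretch repeat the same letters, so these shares rest on a few abundant members. The median G+C content of the members was 52.6%, beside 54.5% for the other sequences.

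As a whole the family took 6.68% of the listed tags of the Sham library (6.56 to 6.81) and 8.07% of those of the tGCI26h library (7.96 to 8.18). It took 6.04% for HPC0h (5.99 to 6.09) and 7.95% for IgG (7.89 to 8.02). The tGCI26h and IgG shares did not differ beyond counting error, with a ratio of 1.01 (0.997 to 1.03), while Sham was lower than IgG at 0.840 (0.823 to 0.858) and HPC0h at 0.760 (0.750 to 0.769). In none of the 3 Piwil2 libraries did the family's share exceed that in IgG beyond counting error. Without the members that differ from the stretch, an alternative chosen after the data were seen, these 3 ratios were 0.977, 0.809 and 0.761.

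Between Piwil2 libraries the family's share in tGCI26h was 1.21-fold that in Sham (1.18 to 1.24). HPC0h stood 1.34-fold below tGCI26h (1.31 to 1.36) and 1.11-fold below Sham (1.08 to 1.13). The size of the first depends on the scaling, with 1.05 under TMM factors and 1.04 under median-of-ratios factors. The direction of the last 2 depends on the library total. The family of novel_88_x12235, 239 sequences, held 52.9% of HPC0h tags against 31.5% in tGCI26h and 33.2% in Sham, and with totals that leave it out the ratios turned to 1.09 and 1.28. The same ratios are given for 2 other families of the table, on the listed tags. The family of novel_7652, with 144 sequences, had 1.31 (1.26 to 1.37) in tGCI26h over Sham and 0.769 (0.746 to 0.793) in HPC0h over tGCI26h. The family of novel_9668, with 74 sequences, had 1.06 (1.02 to 1.11) and 0.698 (0.677 to 0.721).

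The parts of the stretch did not keep the same ratios. The 10 members that start at bases 1 to 6 had 38, 34, 725 and 488 tags (Sham, tGCI26h, HPC0h, IgG). In CPM this was 238.7, 152.8, 872.8 and 729.6. For HPC0h the sum was 5.71-fold that of tGCI26h (4.05 to 8.31) and 3.66-fold that of Sham (2.64 to 5.21), while the whole family was lower on the same totals. Over IgG it stood at 1.20 (1.06 to 1.35). Both of the other Piwil2 libraries were below IgG here, at 0.327 (0.229 to 0.456) in Sham and 0.209 (0.143 to 0.297) in tGCI26h. The member novel_4005_x462, from base 2, had 4, 11, 238 and 104 tags (Sham, tGCI26h, HPC0h, IgG). Another member of this block is shown for its place at the very start of the stretch. It had 4 tags in Sham, 189 in HPC0h and 118 in IgG and was not listed in tGCI26h. In the authors' normalized table its values are 27 (Sham), 4 (tGCI26h), 215 (HPC0h) and 169 (IgG).
novel_2083_x865: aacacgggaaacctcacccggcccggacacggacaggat
The 5 members from base 14 to 20 also had more tags in HPC0h, 2.68-fold over tGCI26h (1.79 to 4.18), from 260 tags against 26. The 15 members from base 101 to 108 went the other way and were 2.41-fold lower in HPC0h than in tGCI26h (2.14 to 2.72), and their tGCI26h sum was 1.67-fold the Sham one (1.40 to 1.98). These small blocks hold under 3% of family tags in any library.

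**Figure D2:**
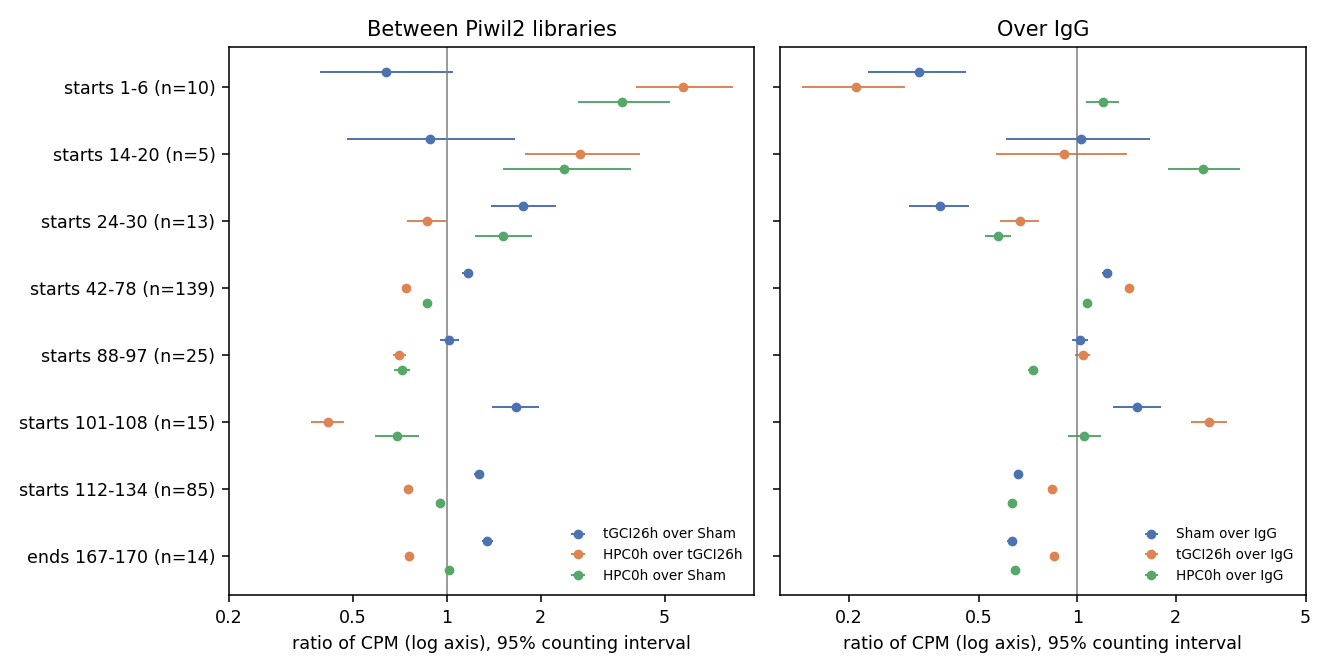
Ratio of CPM between libraries (x axis, log scale) for members grouped by where they start, with the number of members n, and for the 14 members that end at bases 167 to 170; bars are 95% counting intervals. Starts at bases 1 to 6 lie at 5.71 in HPC0h over tGCI26h while the 2 largest blocks lie at 0.742 and 0.753, and over IgG the block from base 42 to 78 lies above 1 in all 3 Piwil2 libraries while the block from base 112 to 134 lies below.

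Against IgG the 2 large blocks parted in the same way in each Piwil2 library. The block from base 42 to 78 was at 1.23 of IgG in Sham (1.19 to 1.28), 1.44 in tGCI26h (1.40 to 1.48) and 1.07 in HPC0h (1.04 to 1.09). The block from base 112 to 134 was at 0.660 (0.640 to 0.680), 0.836 (0.817 to 0.856) and 0.629 (0.619 to 0.640). The 3 comparisons share the IgG library. Ratios within the family take the library totals out. There the block from base 42 to 78 was at 1.47, 1.42 and 1.40 of its share in IgG. The block from base 112 to 134 was at 0.785, 0.824 and 0.828.

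Single members were called higher or lower where 1 of the 2 libraries had at least 10 tags, the CPM ratio was at least 2 either way and its interval excluded 1. In tGCI26h over Sham 117 members could be measured, of which 27 (23.1%) were higher and 12 (10.3%) lower. Of the 1366 sequences measured in all, 27.2% were higher and 13.9% lower, so the family was near the background, and its median log2 ratio of 0.28 lay beside 0.36 over all measured sequences. With TMM or median-of-ratios factors the split was 21 higher and 16 lower. These factors moved the log2 ratio of every sequence by -0.21 and -0.22. The share over all sequences was not computed under them. Of the 27 higher members 7 were not listed in Sham.

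The 3 members below belong to the block from base 42 to 78. They are shown because they were among the members called higher in tGCI26h over Sham with the largest ratios. The first 2 start at base 42 and differ by 1 base, yet had very different tags in tGCI26h.
novel_16659_x123: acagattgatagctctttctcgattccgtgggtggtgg
novel_14987_x135: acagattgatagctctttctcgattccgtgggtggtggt
novel_14927_x135: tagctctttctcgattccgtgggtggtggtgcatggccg
The member novel_14987_x135 was not listed in Sham and had 134 tags in tGCI26h, 58 in HPC0h and 43 in IgG. Its values in the authors' normalized table are 11, 533, 72 and 65. Its neighbour novel_16659_x123, 1 base shorter at the 3′ end, was not listed in Sham either and had 17, 47 and 19 tags. In CPM both were highest in tGCI26h, at 602.2 CPM for novel_14987_x135 and 76.4 CPM for novel_16659_x123. The member novel_14927_x135, from base 51, had 2, 98, 54 and 154 tags, 35.1-fold more CPM in tGCI26h than in Sham (9.45 to 293.6). The member novel_1288_x1307, from base 26, was not listed in Sham and had 28, 84 and 52 tags in the others.

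On the lower side, novel_13043_x152, from base 104, had 23, 4, 96 and 12 tags (Sham, tGCI26h, HPC0h, IgG), 8.04-fold lower in tGCI26h than in Sham (2.75 to 32.0). The member novel_10206_x190, from base 28, had 17 tags in Sham and 92 in HPC0h and was not listed in tGCI26h, where the normalized table gives 13 against 94 in Sham. The member novel_13177_x151, from base 101, had 17 tags in Sham, 19 in HPC0h and 45 in IgG and was not listed in tGCI26h. The member novel_11874_x166, from base 47, was listed in Sham alone, with 12 tags. Its neighbour novel_5312_x352, which holds it whole and is 1 base longer at the 5′ end, had 12 tags in Sham too but 27, 188 and 12 in tGCI26h, HPC0h and IgG. Whether the 12 Sham tags of both are the same reads was not tested.

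In HPC0h over tGCI26h 199 members were measured, with 48 (24.1%) higher and 23 (11.6%) lower, where 21.0% of all 2036 sequences measured were higher and 21.0% lower. The 50 members with the highest mean CPM, which held 88.01% of family tags in tGCI26h and 80.7% in HPC0h, had 1 higher and 10 lower, and on the listed tags their sum was at 0.687 (0.674 to 0.699). Of the other 242 members 149 could be measured, against all 50 of the highest, and 47 were higher and 13 lower. The minimum of 10 tags is a lower CPM in HPC0h than in tGCI26h, so the lowest of them could be measured only through HPC0h. The sum of all 242 was at 1.20 (1.15 to 1.26). With totals without the novel_88_x12235 family these sums were at 0.999 (0.981 to 1.02) and 1.75 (1.67 to 1.84), and that of the whole family at 1.09. Of the 48 higher members 18 were not listed in tGCI26h, which has fewer tags than HPC0h, and the part of depth in this count was not tested. The median log2 ratio was 0.42 over the measured members and 0.12 over all measured sequences. TMM factors gave 62 higher and 14 lower, and totals without that family 80 and 13. These scalings raised the log2 ratio of every sequence here, by 0.24 and 0.54. The share over all sequences was not computed under them. With members inside a longer one summed with it, 13 were higher and 12 lower.

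**Figure D3:**
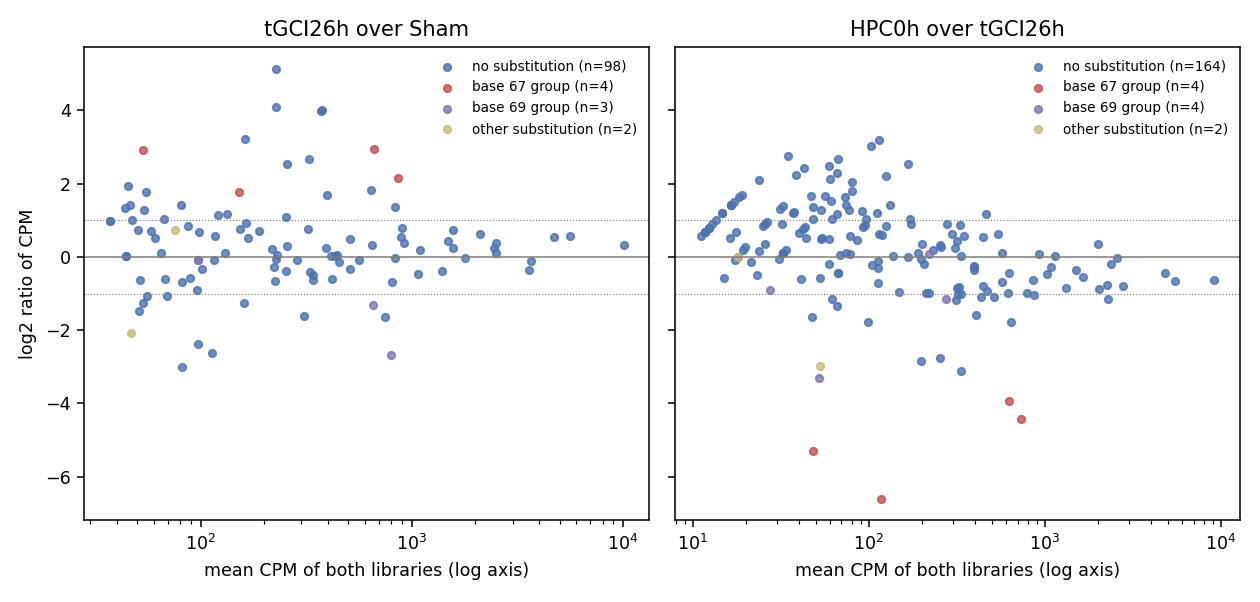
Log2 ratio of CPM (y axis) against the mean CPM of both libraries (x axis, log scale) for members listed in both libraries and measured, coloured by substitution, with dotted lines at 2-fold; the left panel is tGCI26h over Sham and the right HPC0h over tGCI26h. On the right, with the listed tags as totals, members of low CPM lie mostly above 0 and the most abundant ones below, and the members with a substitution at base 67 are the lowest, down to the 97.1-fold lower novel_12368_x160. The minimum of 10 tags is 12.04 CPM in HPC0h but 44.94 CPM in tGCI26h. Members of the lowest CPM could thus be measured only through HPC0h, and how far that rule sets their place above 0 was not tested.

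In HPC0h over Sham 50 of 199 measured members (25.1%) were higher and 18 (9.05%) lower, beside 25.4% and 15.9% of all 2020 sequences measured. Totals without the novel_88_x12235 family gave 79 higher and 15 lower. That scaling raised every log2 ratio here by 0.51, and the share over all sequences was not computed under it. On the listed tags the median log2 ratio was 0.45, against 0.58 over all. Of the 50 higher members 20 were not listed in Sham. Among them novel_14867_x136, from base 43, had 10, 171 and 67 tags in tGCI26h, HPC0h and IgG, and novel_2147_x838, from base 45, had 5, 171 and 29. Both start within 3 bases of novel_14987_x135, which was highest in tGCI26h instead. The member novel_2446_x741, from base 113, was 10.4-fold lower in HPC0h than in Sham (6.94 to 15.9), with 74, 34, 37 and 64 tags.

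Over IgG, 17 of 196 measured members were higher and 54 lower in Sham, where 12.5% of all 1919 sequences measured were higher and 28.6% lower. In tGCI26h 22 of 195 were higher and 59 lower, beside 16.6% and 19.5% of 1961. In HPC0h 26 of 218 were higher and 39 lower, beside 17.8% and 17.1% of 2159. With totals that leave out the novel_88_x12235 family 43 were higher and 31 lower. Those totals raised every log2 ratio there by 0.32, and the share over all sequences was not computed under them. With at least 50 tags in place of 10, the HPC0h split was 18 higher and 16 lower. Lower members were 27.6%, 30.3% and 17.9% of those measured. The Piwil2 library itself did not list 17 of these 54 members (Sham), 23 of 59 (tGCI26h) and 1 of 39 (HPC0h), and IgG has more listed tags than Sham and tGCI26h, so these counts do not show that the members were missing there. With members inside a longer one summed with it, the tGCI26h split turned to 16 higher and 12 lower of 68. The 14 members that end at bases 167 to 170 gave 6 lower in Sham, 3 in tGCI26h and 0 in HPC0h, and none was higher. The largest ratio over IgG in HPC0h was that of novel_5312_x352, from base 46, at 12.6-fold (7.05 to 24.8), and it was also higher in Sham, at 4.20-fold (1.73 to 10.2), and in tGCI26h, at 6.76-fold (3.31 to 14.7). The HPC0h tags of novel_12819_x155, from base 71, were 24 and its IgG tags 2, giving 9.66 (2.40 to 84.4), and novel_15953_x127, from base 20, had 2 and 30, 18.6-fold lower (4.73 to 160.9). Members from the start of the stretch were among the lowest over IgG in Sham, such as novel_13493_x148, from base 4, which was not listed there and had 5, 91 and 111 tags in tGCI26h, HPC0h and IgG.

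A small part of the family differed from the stretch in its letters. Of the 292 members 276 match it at every base and 16 carry substitutions, at 9 bases in all. A substitution is written with the base of the stretch, its position counted from 1 at the 5′ end of the stretch, and the base of the member. The 16 members were put into groups by these letters after their tags had been seen, and their sequences are not printed. Their share of family tags was 4.82% for Sham (4.42 to 5.24) and 4.79% for tGCI26h (4.48 to 5.11), against 1.04% for HPC0h (0.949 to 1.13) and 1.16% for IgG (1.07 to 1.26). Sham and tGCI26h lay within each other's intervals and above the other 2 libraries.

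Sham and tGCI26h differed in the shares of some substitutions. Members with C67T and C68T, 7 sequences that start at bases 65 to 67, had 90, 663, 122 and 228 tags (Sham, tGCI26h, HPC0h, IgG). In CPM this was 565.3, 2979.6, 146.9 and 340.9. The tGCI26h level was 5.27-fold the Sham level (4.22 to 6.64) and 8.74-fold the IgG level (7.51 to 10.2), and HPC0h was 20.3-fold below tGCI26h (16.7 to 24.8). Members with G69A, 5 sequences that start at bases 49 to 69, had 394, 170, 355 and 350 tags. Here tGCI26h was 3.24-fold below Sham (2.70 to 3.90), and Sham stood at 4.73-fold the IgG level (4.08 to 5.48). The member novel_8318_x231 held 219 of the 394 Sham tags, and without it these values were 2.00-fold (1.58 to 2.55) and 2.58-fold (2.12 to 3.12). Most of the 175 Sham tags left were in a single member that also carries C106T. Of the 3 members measured in tGCI26h over Sham 2 were lower, while novel_19380_x108 was at 0.939 (0.467 to 1.93). Without its own most abundant member the group with C67T and C68T was at 6.28 in tGCI26h over Sham (4.52 to 8.94). The 25 members that start at bases 66 to 70 and match the stretch did not share either pattern, with 0.967 (0.905 to 1.03) in tGCI26h over Sham and 0.862 (0.821 to 0.906) in HPC0h over tGCI26h.

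Counted by base, C67T was carried by 18.7% of the 3540 tags that cover base 67 in tGCI26h (17.5 to 20.05), by 4.84% of 1861 in Sham (3.91 to 5.91), 1.40% of 8693 in HPC0h (1.17 to 1.67) and 3.25% of 7019 in IgG (2.85 to 3.69). C62T was carried by 16.5% of the 1420 tags over base 62 in Sham (14.6 to 18.6) but by 2.78% in tGCI26h, 2.69% in HPC0h and 1.41% in IgG. G69A was at 14.8% in Sham, 3.61%, 2.76% and 3.87% in the same order, and C106T at 4.79%, 2.10%, 1.22% and 2.00%. C68T, carried by 10 members, was at 15.2% in Sham (13.7 to 16.8) and 17.8% in tGCI26h (16.7 to 19.0). It was at 3.11% in HPC0h and 4.08% in IgG. The Sham shares at bases 62, 68 and 69 lean on 1 member, novel_8318_x231. Its 219 Sham tags are among the 235 with C62T, the 329 with C68T and the 394 with G69A. Of the 173 Sham tags with C106T, 25 were in the 3 members with that substitution alone. The rest were in a single member that also carries G69A, and they count there too. In the last block, by contrast, a single member with G144A, A147C and G149A had 4, 2 and 9 tags in the Piwil2 libraries and was not listed in IgG.

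**Figure D4:**
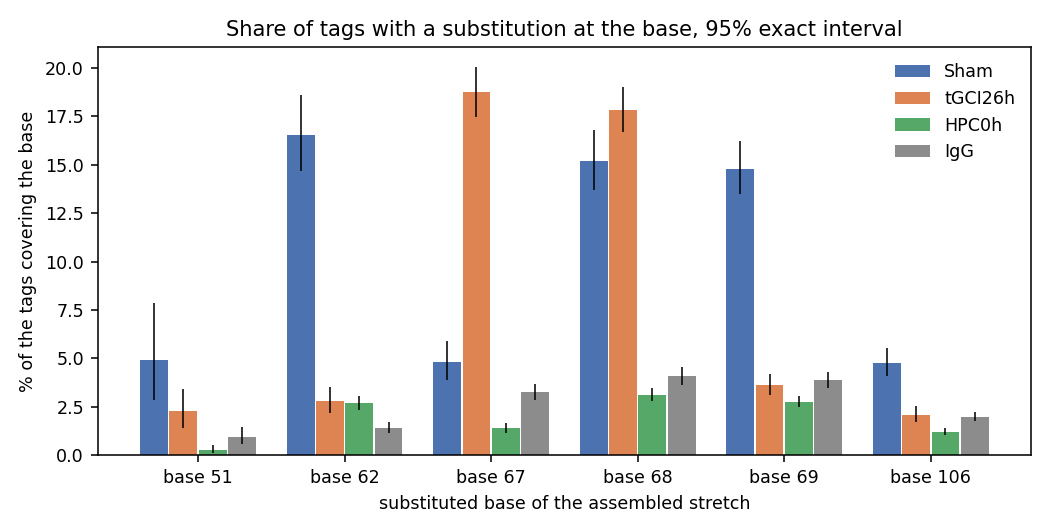
Share of the tags covering a base that carry a substitution there (y axis, %), for the 6 substituted bases between 51 and 106 (x axis), by library, with exact 95% intervals as error bars. At base 67 tGCI26h stands at 18.7% against at most 4.84% in the others, and at bases 62 and 69 Sham stands highest, at 16.5% and 14.8%. The same 219 Sham tags of 1 member, novel_8318_x231, are part of both Sham shares. At base 68 Sham and tGCI26h stand at 15.2% and 17.8%, above HPC0h and IgG.

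The abundant members of these groups are part of the sums above and add no separate support for the contrast. The member novel_7223_x263, with C67T and C68T from base 65, had 50, 312, 54 and 140 tags (Sham, tGCI26h, HPC0h, IgG), and was 21.6-fold lower in HPC0h than in tGCI26h (16.1 to 29.4). The member novel_19401_x108, with the same substitutions from base 66, had 24, 260, 64 and 54 tags and was 14.5-fold above IgG in tGCI26h (10.8 to 19.8). The member novel_8318_x231, with C62T, C68T and G69A from base 54, had 219, 48, 188 and 65 tags and its Sham level was 14.2-fold the IgG level (10.7 to 19.0) and 6.38-fold the tGCI26h level (4.65 to 8.91). In CPM the first 2 were highest in tGCI26h and novel_8318_x231 in Sham. In HPC0h over tGCI26h 7 of the 10 measured members with a substitution were lower and 0 higher, and the matching members gave 16 lower and 48 higher of 189, beside 21.0% lower and 21.0% higher over all sequences measured.

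Of the 16 members, 3 lie inside bases that the GRCr8 windows hold, and none was found whole in a window, whereas the windows do not span the others. Which gene or organism they come from was not tested.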

How the data were processed

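Tables of 2 kinds were deposited, and all comparisons used the first, which holds raw tag counts per sequence, per the file headers. The second holds normalized tag counts of unstated scaling, given by the authors as whole numbers, and was treated as a score. Per the submitters' processing notes cutadapt 1.9.3 and Novoalign 3.02.12 were used, with no role named. No genome build is named there. The raw file holds 40 empty lines and the normalized file 46, which were skipped. Per the labels' protocols, amplicons were chosen for inserts near piRNA size and sequenced for 50 cycles.

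Columns were matched to libraries by name. IgG is exact, while S, R26 and P0 match Sham, tGCI26h and HPC0h only by letter or time. A blank cell was taken as 0 tags, and the lowest listed value is 2. CPM used the listed tags as totals, and medians added 0.5 tags. Named members were novel_12320_x160, the 10 with the highest mean CPM, and the called members with the largest ratio (4 per direction between Piwil2 libraries, 2 over IgG). The substitution groups and the 14 members with an end in the last 4 bases were chosen after their values were seen. Members, lists and rules were chosen with earlier results of these data known. The calling step was tested on simulated counts. Python 3.11.15, scipy 1.17.1, edgeR 4.0.16 (TMM) and DESeq2 1.42.0 (median of ratios) were used, with no model of either tool fitted. With 1 library per group, no p-value is given.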

Additional observations from a re-analysis of the deposited data

Results flagged for a closer look

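The normalized table lists 67 sequences that share 20 bases with a member and are not in the raw table, so no comparison used them. Of these, 2 had a value of at least 10 in tGCI26h that was also at least 2-fold the IgG value, and 0 did in Sham or HPC0h. Summed over the 67, the normalized values were 27 (Sham), 77 (tGCI26h), 147 (HPC0h) and 136 (IgG), and the highest single value was 33.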

How the results depend on the processing

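No paired analysis was possible because each group is 1 library. Of 134 alternative values 88 stayed close to the reported ones, 44 moved and 2 reversed. In the order tGCI26h over Sham, HPC0h over tGCI26h, HPC0h over Sham, Sham over IgG, tGCI26h over IgG and HPC0h over IgG, the family's ratio was 1.05, 0.884, 0.926, 0.905, 0.948 and 0.838 with TMM factors. With median-of-ratios factors it was 1.04, 0.826, 0.858 and 0.974 in the first 4 and 0.835 in the last. With totals without the novel_88_x12235 family it was 1.18, 1.09, 1.28, 0.737, 0.869 and 0.946, the 2 reversals being HPC0h over tGCI26h and HPC0h over Sham. Against the reported scaling, TMM moved every log2 ratio by -0.21 in tGCI26h over Sham and 0.24 in HPC0h over tGCI26h, median of ratios by -0.22 and 0.14, and the totals without that family by 0.54 in HPC0h over tGCI26h and 0.51 in HPC0h over Sham. Without novel_12320_x160 it was 0.765 in HPC0h over tGCI26h and 0.780 in HPC0h over IgG. Without the 16 members that carry a substitution, chosen after the data were seen, it was 0.778 in HPC0h over tGCI26h, 0.940 in HPC0h over Sham, 0.809 in Sham over IgG and 0.977 in tGCI26h over IgG, and 11 members were lower in HPC0h over Sham. The family's share in the authors' normalized table was 6.17% in HPC0h and 8.03% in IgG.

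Counts of members changed more. The share over all sequences was computed for the reported rule alone, so the counts below have no such share beside them. With at least 50 tags 15 were higher and 4 lower in tGCI26h over Sham, 9 lower in HPC0h over Sham, 7 higher in Sham over IgG, 13 higher and 30 lower in tGCI26h over IgG, and 18 higher and 16 lower in HPC0h over IgG, which turned that split. Summing members that lie inside a longer one left 71 sequences, with 14 higher in tGCI26h over Sham, 13 higher and 12 lower in HPC0h over tGCI26h, 17 higher in HPC0h over Sham, 15 lower in Sham over IgG, 12 lower in tGCI26h over IgG, and 9 higher and 11 lower in HPC0h over IgG. In tGCI26h over IgG this turned the split to 16 higher and 12 lower. TMM factors gave 14 lower in HPC0h over tGCI26h. Totals without the novel_88_x12235 family gave 80 higher and 13 lower there, 79 higher in HPC0h over Sham and 43 higher in HPC0h over IgG. A join of 25 bases kept 290 members, and blocks with starts within 1 base left the last block as it was. The depth of Sham limits what can be said of low members, since 88 of them had at least 10 tags there.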
